A study of Mus musculus with 4 samples.

Results

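The platelet-derived growth factor (PDGF) family was followed through the cells of mouse hearts with and without myocardial infarction. It was taken as 6 genes, the 4 ligand genes Pdgfa, Pdgfb, Pdgfc and Pdgfd and the 2 receptor genes Pdgfra and Pdgfrb, chosen by gene symbol from the 32287 features of the deposited count matrices. All 6 were present, each under 1 identifier. In the GENCODE annotation of mm10 Pdgfa (ENSMUSG00000025856) lies at chr5:138976014-138997370 on the minus strand, Pdgfb (ENSMUSG00000000489) at chr15:79995874-80014977 on the minus strand, Pdgfc (ENSMUSG00000028019) at chr3:81036416-81214040 on the plus strand, Pdgfd (ENSMUSG00000032006) at chr9:6168584-6378850 on the plus strand and Pdgfra (ENSMUSG00000029231) at chr5:75152292-75198215 on the plus strand. Pdgfrb is ENSMUSG00000024620. Live nucleated cells were sorted from heart digests and sequenced as 4 droplet libraries, 1 per group, so no test was run and no p-value is given. The groups were Tcf21-MerCreMer:flox hearts 3 days after infarction, Tcf21-MerCreMer hearts 3 days after infarction, Tcf21-MerCreMer:flox hearts without infarction and Tcf21-MerCreMer hearts without infarction. MerCreMer is a Cre recombinase that tamoxifen switches on, here driven by the Tcf21 gene of cardiac fibroblasts, and hearts of all 4 groups carried it and received tamoxifen. The series design gives TCF21 as the gene deleted in fibroblasts, while the labels name neither the floxed part nor how many animals entered a library. The Tcf21-MerCreMer:flox libraries are called deletion-labelled below and the Tcf21-MerCreMer libraries control.

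The libraries held between 55710468 and 129704045 UMIs (a UMI is a distinct RNA molecule read for a gene in a cell), and 9431, 9141, 10142 and 8289 cells were kept in the order of the groups above. Tcf21 went against the label. It stood at 32.6 and 147 CPM in fibroblasts of the deletion-labelled libraries with and without infarction, against 22.2 and 96.2 CPM in the matching control libraries. The assay reads the 3′ end of transcripts, so these UMIs may come from a transcript that lacks the floxed part, which was not tested. The added feature eGFP, a green fluorescent protein, stood at 701, 1370, 348 and 633 CPM in fibroblasts, in the order of the groups above. MerCreMer stood there at 0.940, 0.632, 3.39 and 8.41 CPM. The cause of these differences was not tested. Fibroblasts numbered 1467, 971, 1955 and 1864 cells, endothelial cells 527, 235, 5479 and 4479, and mural cells, the pericytes and smooth muscle cells that wrap vessels, 172, 77, 559 and 197, in the same order. The summed level of the mural marker list was above 0 for 10 of 10 markers in fibroblasts of every library, and pairs of libraries shared between 19 and 41 cell barcodes. CPM below means UMIs of a gene per 1000000 UMIs summed over the cells of a class or cluster in a library, with exact Poisson 95% intervals that cover counting error only. Since the assay counts 3′ ends, levels are compared between cells and not between genes.

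PDGF ligands are secreted dimers that bind 2 related receptor tyrosine kinases. PDGF-A and PDGF-C act mainly through PDGF receptor alpha, PDGF-B binds both receptors, and PDGF-D acts mainly through PDGF receptor beta. PDGF-C and PDGF-D carry a CUB domain that has to be cut off by proteases before they bind. In the heart, PDGF receptor alpha marks fibroblasts, PDGF receptor beta marks mural cells, and endothelial PDGF-B is the signal that recruits pericytes to vessels.

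Pdgfa was the ligand gene that stood higher with infarction in all 3 classes compared below, so its promoter is shown, followed by that of Pdgfra, the gene that marks the main receiving cell. Both are RefSeq windows on GRCm38.p6 from 250 bases before to 50 bases after an annotated start, and 4 of the 6 genes had such a window (Pdgfa had 2 of the 5 windows). Capitals mark the GC box, searched as GGGCGG on both strands and so printed as CCGCCC where it lies on the opposite strand. The Pdgfa window at chr5:138994895-138995194 (minus strand, inside the span annotated for the gene) held 2 GC boxes and was 73.3% G and C. The Pdgfra window at chr5:75152001-75152300 (plus strand) held none and was 51% G and C.
Pdgfa promoter: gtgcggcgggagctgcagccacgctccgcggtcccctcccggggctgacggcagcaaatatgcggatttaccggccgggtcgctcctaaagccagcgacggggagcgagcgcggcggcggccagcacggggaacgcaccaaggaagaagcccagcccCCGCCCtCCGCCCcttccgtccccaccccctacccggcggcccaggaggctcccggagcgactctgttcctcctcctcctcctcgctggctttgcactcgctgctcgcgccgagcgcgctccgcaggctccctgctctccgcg
Pdgfra promoter: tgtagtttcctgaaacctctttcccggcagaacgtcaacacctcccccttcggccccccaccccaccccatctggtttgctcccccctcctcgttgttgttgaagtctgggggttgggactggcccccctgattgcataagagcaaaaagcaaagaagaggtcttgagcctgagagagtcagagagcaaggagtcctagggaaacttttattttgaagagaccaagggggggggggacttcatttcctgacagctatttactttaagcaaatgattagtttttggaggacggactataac
Of 32851 RefSeq windows of this length, 11714 (35.7%) held a GC box. The other Pdgfa window held 1 and those of Pdgfc and Pdgfd held none. The E-box CAGCTG, searched because TCF21 belongs to the basic helix-loop-helix factors, which bind E-boxes, was in none of the 5 windows and in 16.3% of all windows.

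The cells that held the ligand UMIs were first counted over all kept cells. The 4 libraries held 9944 UMIs of Pdgfa, 34572 of Pdgfb, 731 of Pdgfc, 6388 of Pdgfd, 44182 of Pdgfra and 27378 of Pdgfrb. Endothelial cells held 45.7% and 35.6% of the Pdgfb UMIs in the deletion-labelled and control infarction libraries, against 82.1% and 82.6% in the deletion-labelled and control libraries without infarction. They also made up 5.59% and 2.57% of kept cells with infarction, against 54.0% and 54.0% without. Mononuclear phagocytes, the monocytes and macrophages, held 28.0% and 43.3% of Pdgfb UMIs with infarction and 3.26% and 6.15% without, and cells of unnamed clusters held 20.02% and 16.8% with infarction and 11.04% and 9.02% without. Pdgfa was spread over several classes. Fibroblasts held 33.1% and 35.5% of its UMIs with infarction, against 18.6% and 21.5% without, and mononuclear phagocytes 25.2% and 35.6% against 7.905% and 17.9%. Mural cells held 22.1% and 13.4% against 32.2% and 14.8%, and endothelial cells 14.9% and 11.5% against 21.8% and 33.8%. Fibroblasts held 43.4% and 48.5% of Pdgfc UMIs with infarction, against 3.23% and 6.19% without, where mononuclear phagocytes held 83.9% and 83.5%. Pdgfra lay in fibroblasts, with 97.3% and 92.7% of its UMIs with infarction and 95.02% and 96.2% without. Pdgfrb was divided between fibroblasts, with 76.3% and 83.7% of UMIs with infarction against 37.9% and 64.2% without, and mural cells, with 21.9% and 13.2% against 57.6% and 32.3%. These shares depend on which cells the digest and the sort recovered, and the part of RNA from other cells in them was not tested.

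**Figure D1:**
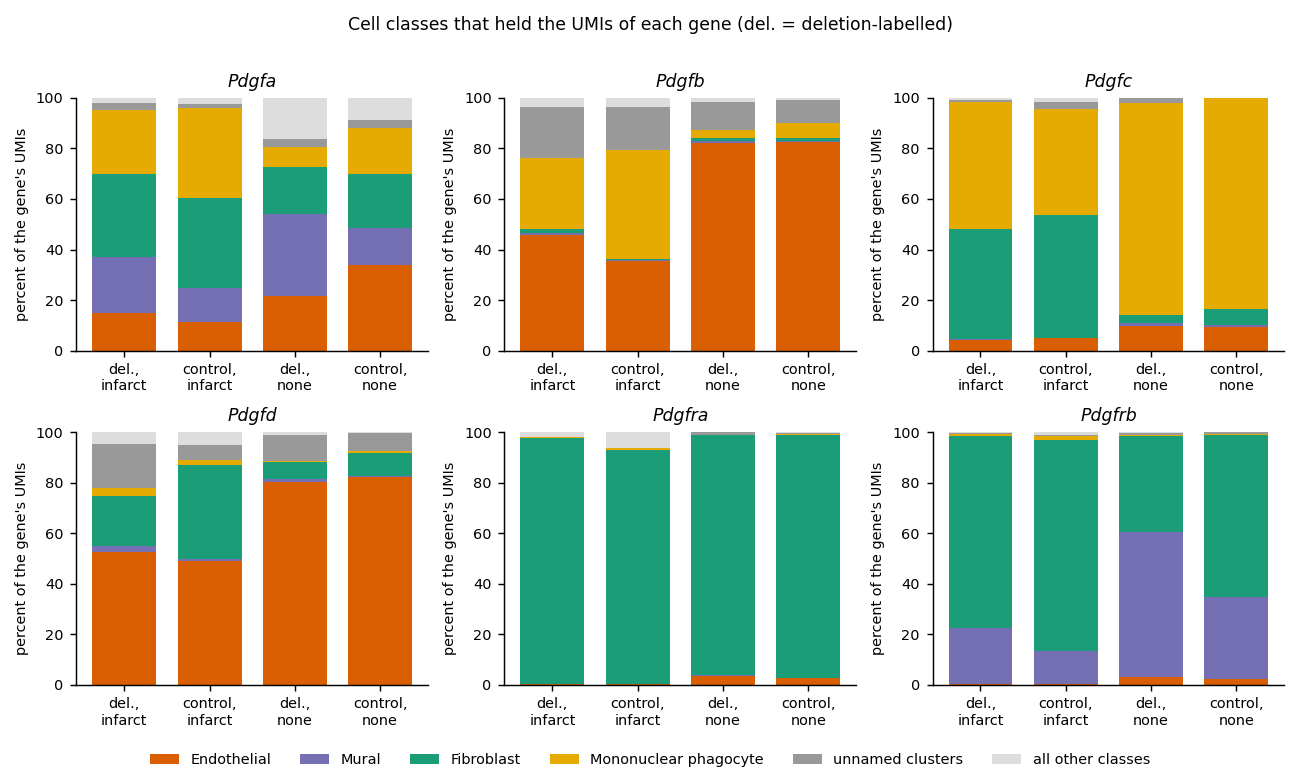
Percent of the UMIs of each gene (vertical axis) held by each cell class (colours) in the 4 libraries (bars). Endothelial cells held 82.1% and 82.6% of Pdgfb UMIs in the libraries without infarction and 45.7% and 35.6% in those with it, and fibroblasts held over 90% of Pdgfra UMIs in every library.

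The levels within classes were then compared between infarction and no infarction in each genotype. A gene was counted as higher or lower when its CPM differed by at least 1.5-fold and either class sum held at least 10 UMIs, which is no test. In fibroblasts 5 of the 6 genes passed in each genotype, Pdgfa and Pdgfc higher and Pdgfb, Pdgfd and Pdgfra lower. Of all genes counted the same way in fibroblasts, 53.8% passed in the deletion-labelled comparison (21.4% higher and 32.5% lower) and 65.8% in the control comparison (26.1% higher and 39.7% lower). In endothelial cells 5 of 6 passed in the deletion-labelled comparison, where 45% of all genes did (23.8% higher and 21.2% lower). All 6 passed in the control comparison, where 58.6% did (28.5% higher and 30.2% lower). Pdgfa and Pdgfc were the members higher there in both genotypes. Pdgfc rests there on 13 and 12 UMIs with infarction, against 9 and 9 without. In control endothelial cells with infarction Pdgfra and Pdgfrb stood at 3.05 CPM (1.32 to 6.01) and 2.29 CPM (0.840 to 4.98). In mural cells all 5 genes with enough UMIs passed, Pdgfa higher and the other 4 lower, in each genotype. There 47.1% of all genes passed in the deletion-labelled (16.6% higher and 30.5% lower) and 62.1% in the control comparison (22.2% higher and 39.9% lower). Of the lower members, Pdgfb, Pdgfd and Pdgfra had 21, 8 and 4 UMIs in deletion-labelled mural cells with infarction. In control mural cells with infarction they had 2, 1 and 2 UMIs. Without infarction their mural levels were 47.3, 11.4 and 7.38 CPM in deletion-labelled and 69.2, 17.9 and 26.2 CPM in control libraries. Pdgfrb had 1642 and 879 mural UMIs with infarction. The part of RNA from other cells in mural Pdgfb, Pdgfd and Pdgfra was not tested. Passing was common among all genes in these comparisons, and the members' counts are to be read against those shares.

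**Figure D2:**
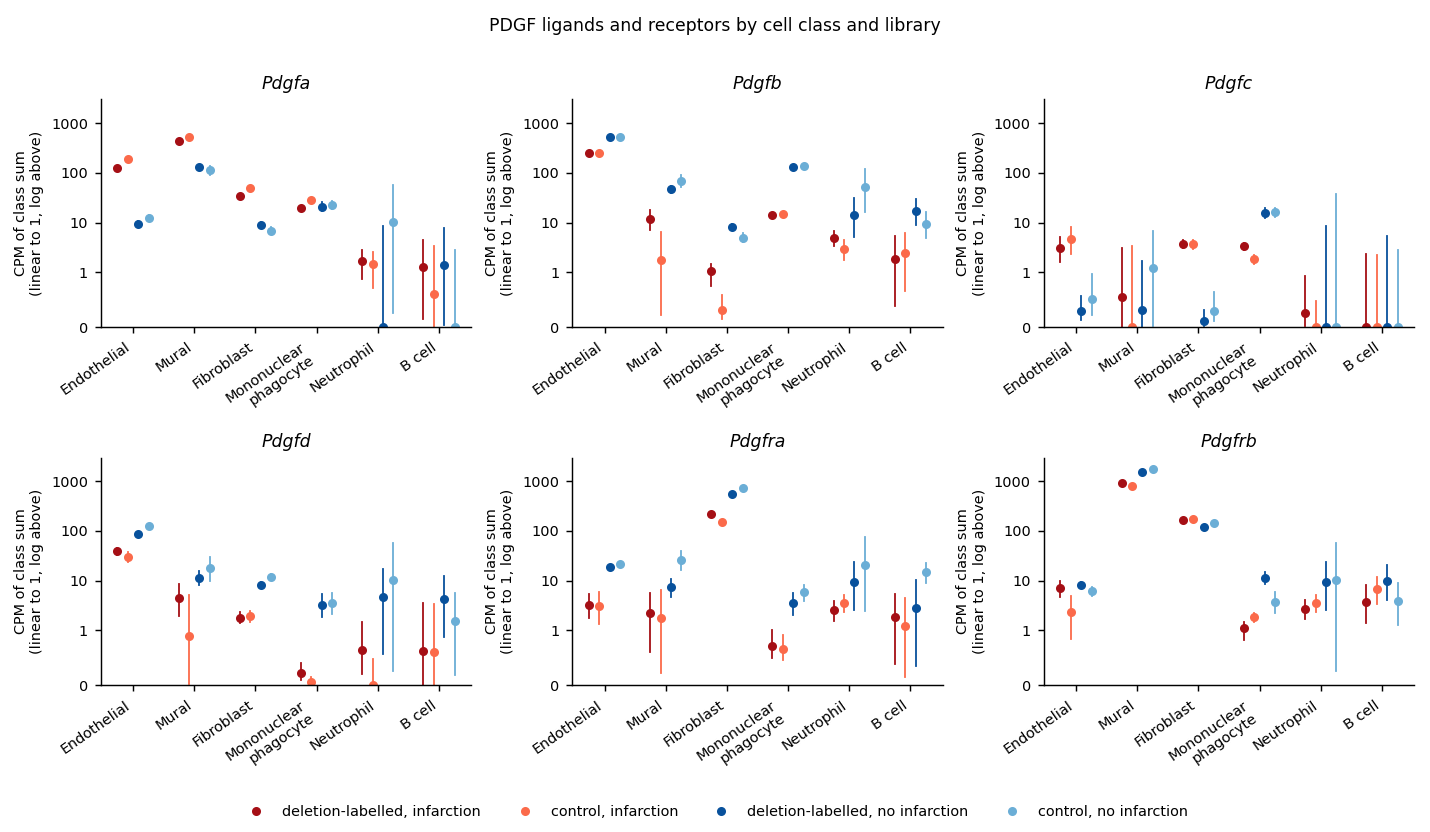
CPM of class sums (vertical axis, linear up to 1 and logarithmic above) of the 6 genes in 6 cell classes (horizontal axis) and 4 libraries (colours), with bars for exact Poisson 95% intervals. Pdgfa in mural cells stood at 444 and 527 CPM with infarction and at 129 and 115 CPM without, and Pdgfra in fibroblasts at 219 and 154 CPM with infarction and at 557 and 721 CPM without.

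Pdgfa, which encodes the A chain, was higher with infarction in the 3 stromal and vascular classes of both genotypes. Mural cells had 444 CPM (413 to 475; 803 UMIs) in the deletion-labelled and 527 CPM (485 to 572; 584 UMIs) in the control infarction library, against 129 CPM (117 to 142; 420 UMIs) in the deletion-labelled and 115 CPM (92.8 to 140; 96 UMIs) in the control library without infarction. The log2 ratios of infarction over no infarction were 1.78 (1.61 to 1.95) in deletion-labelled and 2.20 (1.89 to 2.53) in control mural cells. Endothelial cells had 126 CPM (115 to 137) and 191 CPM (174 to 208) with infarction, against 9.43 CPM (8.37 to 10.6) and 12.5 CPM (10.9 to 14.2) without, in deletion-labelled and control hearts. These are 13.3-fold and 15.3-fold differences, the largest of Pdgfa among the 3 classes. Fibroblasts had 34.3 CPM (32.4 to 36.3) and 48.8 CPM (46.4 to 51.3) with infarction, against 8.93 CPM (7.84 to 10.1) and 6.88 CPM (5.78 to 8.12) without, or 3.84-fold and 7.10-fold higher. In each of the 3 classes the intervals of both infarction libraries lay above those of both libraries without infarction. B cells, which should lack the gene, held at most 2 UMIs of Pdgfa in any library. Macrophages had 24.3 and 33.7 CPM in cluster 2 of the infarction libraries and 22.5 and 23.7 CPM in the resident cluster 12 of the libraries without infarction, which are described below.

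The higher Pdgfa of fibroblasts lay in a fibroblast cluster that the libraries without infarction hardly contained. Cluster 5, named Activated for Timp1, Cthrc1, Tnc and Acta2 among its leading genes, which also held the cycling genes Mki67 and Birc5, made up 66.2% and 97.8% of fibroblasts with infarction and 0.205% and 0.483% without. It stood at 38.9 and 49.1 CPM of Pdgfa in the deletion-labelled and control infarction libraries. The Smoc2-type cluster 3 and the Pi16-type cluster 6 were found in the deletion-labelled library of both treatments, which allowed a comparison within each. Cluster 3 had 2.83 CPM (4 UMIs) with infarction against 3.98 CPM (67 UMIs) without, a log2 ratio of -0.49 (-2.41 to 0.93). Cluster 6 had 15.996 CPM (78 UMIs) with infarction against 15.8 CPM (161 UMIs) without, a log2 ratio of 0.02 (-0.39 to 0.42). Neither resident cluster therefore showed the 3.84-fold difference of the whole class. The control infarction library held 5 and 16 cells of these clusters, too few for the same comparison.

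The summed mural marker level moved with Pdgfa in fibroblasts, but not every marker did. The summed mural marker list stood at 1185 and 1715 CPM in fibroblasts with infarction, against 149 and 96.9 CPM without, of which Acta2, the smooth muscle actin also made by activated fibroblasts, gave 761 and 1138 CPM against 23.5 and 18.8. The other genes of the list differed in direction. Lower in both genotypes were Rgs5 at 3.05 and 8.31 CPM with infarction against 23.7 and 10.7 CPM without, Kcnj8 at 1.595 and 2.08 against 11.1 and 8.905 CPM, Abcc9 at 2.65 and 3.66 against 21.9 and 14.8 CPM, and Vtn at 1.08 and 0.442 against 7.16 and 6.78 CPM. Higher in both were Tagln, at 391 and 523 against 35.5 and 17.7 CPM, and Cspg4, at 4.39 and 10.4 against 3.14 and 2.23 CPM. Higd1b, at 0.370 and 1.74 against 1.14 and 0.495 CPM, and Notch3, at 18.8 and 27.0 against 21.0 and 16.2 CPM, were higher in the control and lower in the deletion-labelled comparison. In mural cells themselves Rgs5 stood at 4649 and 3713 CPM with infarction and 13466 and 11631 CPM without. Myh11, the smooth muscle myosin, was at or under 0.922 CPM in fibroblasts of every library. If mural RNA came along in proportion to the whole list, Acta2 and Tagln included, it would carry 30.4 and 62.3 CPM of Pdgfa into fibroblasts with infarction, against 0.713 and 0.521 CPM without. The part of mural RNA in the Pdgfa of fibroblasts was not tested beyond these values.

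In mural and endothelial cells the Pdgfa difference was also present within clusters. The pericyte cluster 16, in the deletion-labelled library, had 206 CPM with infarction against 85.5 CPM without, a log2 ratio of 1.27 (0.83 to 1.69), and the smooth muscle cluster 26 had 404 against 207 CPM, a log2 ratio of 0.96 (0.61 to 1.31). Mural cluster 25, which carried no subtype name, had Ccl2, Il6 and Cxcl1 among its leading genes and held 48.8% and 83.1% of mural cells with infarction, had 510 and 545 CPM. The Tip-type endothelial cluster 14, named for Apln and Pgf, which mark sprouting vessel tips, could be compared in both genotypes. It had 180 CPM with infarction against 16.3 CPM without in the deletion-labelled libraries and 203 against 35.8 CPM in the control libraries, log2 ratios of 3.47 (2.98 to 3.995) and 2.51 (2.04 to 3.01). The arterial cluster 4 had 37.2 against 9.40 CPM, the venous and endocardial cluster 19 had 104 against 39.2 CPM and the capillary cluster 0 had 14.3 against 6.19 CPM in the deletion-labelled libraries. The capillary value with infarction rests on 6 UMIs, and its log2 ratio of 1.21 has an interval from -0.27 to 2.39. The Tip-type cluster made up 32.8% and 64.3% of endothelial cells with infarction and 5.62% and 5.09% without.

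**Figure D3:**
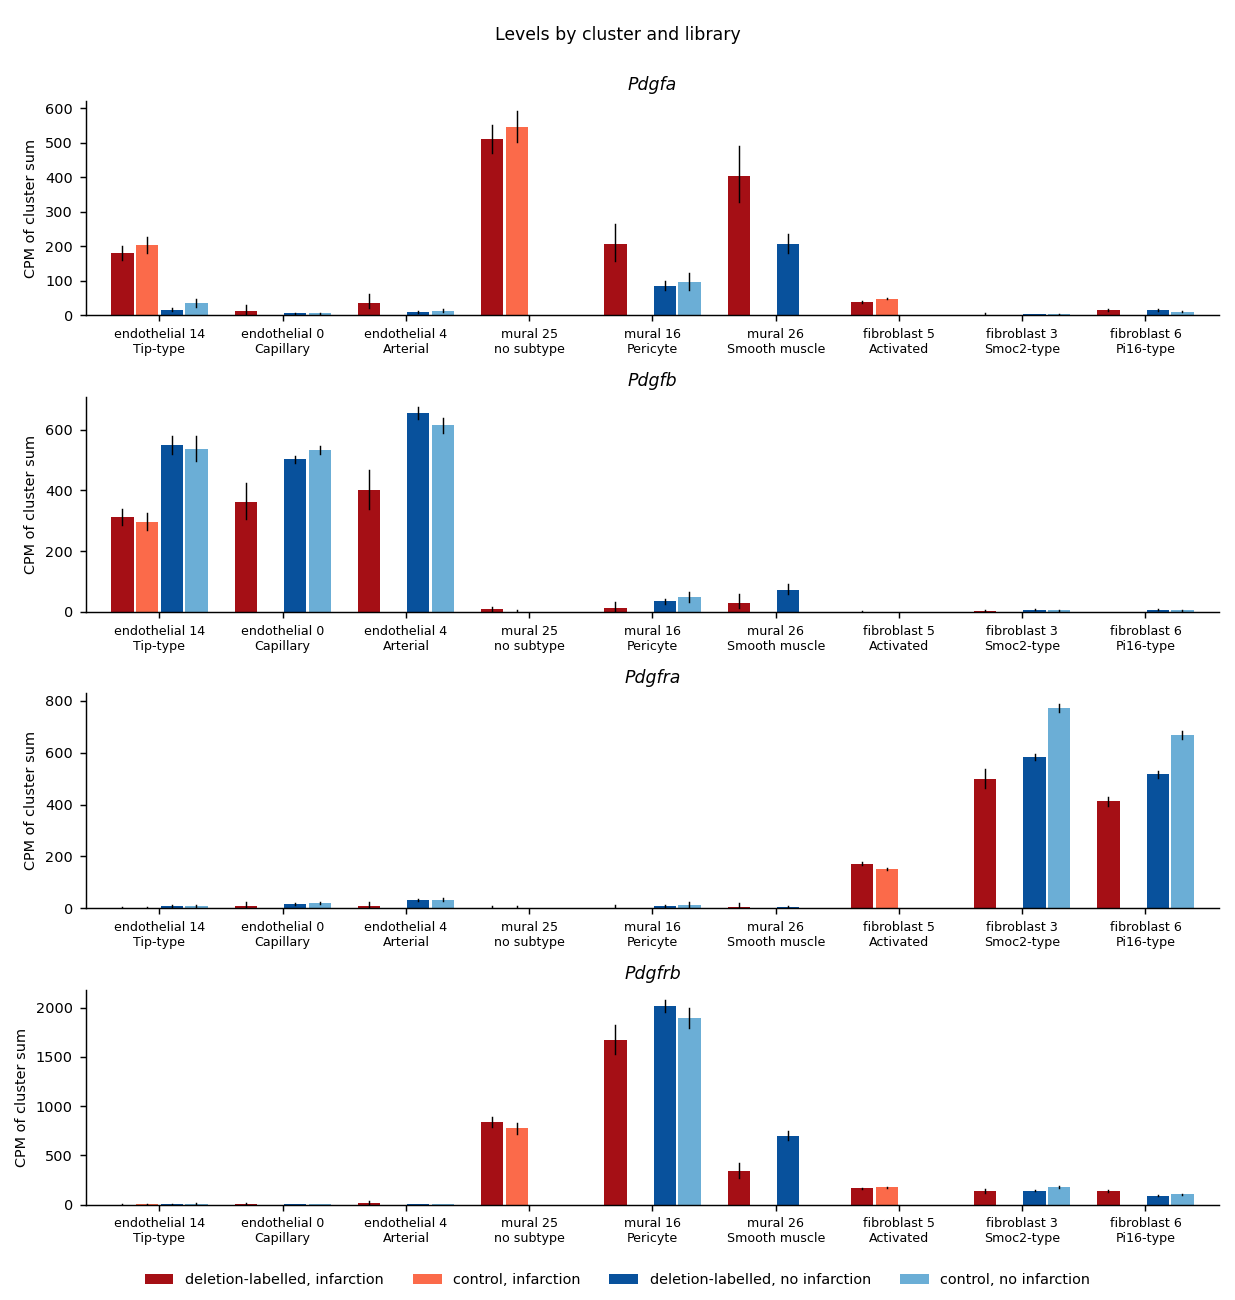
CPM of cluster sums (vertical axes) of Pdgfa, Pdgfb, Pdgfra and Pdgfrb in 9 clusters of endothelial cells, mural cells and fibroblasts, with libraries as colours and exact Poisson 95% intervals as bars; clusters with fewer than 20 cells in a library have no bar. Pdgfra in fibroblasts stood at 172 and 151 CPM in the Activated cluster 5 of the infarction libraries, and at 498 and 412 CPM in clusters 3 and 6 of the deletion-labelled infarction library.

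Pdgfb, which encodes the B chain, was an endothelial gene and stood lower there with infarction. Endothelial cells had 247 CPM (233 to 263; 1067 UMIs) in the deletion-labelled and 255 CPM (236 to 275; 668 UMIs) in the control infarction library, against 527 CPM (519 to 536; 15875 UMIs) in the deletion-labelled and 519 CPM (508 to 529; 9114 UMIs) in the control library without infarction. The log2 ratios were -1.09 (-1.18 to -1.003) and -1.03 (-1.14 to -0.91), and both infarction libraries lay below both others. Thinned to 2000 UMIs per cell, 38.3% and 33.3% of endothelial cells with infarction had a Pdgfb UMI, against 61.7% and 60.97% without, while 0.462% and 0.926% of B cells did with infarction and 2.67% and 1.09% without. Without thinning the endothelial shares were 62.6% and 71.9% against 82.6% and 75.4%. In UMIs per cell with no scaling, a measure added after seeing the data, the control ratio turned round, with 2.84 Pdgfb UMIs per endothelial cell with infarction against 2.03 without, beside 2.02 against 2.90 in the deletion-labelled libraries. The median endothelial cell held 5077 and 8135 UMIs with infarction and 4972 and 3512 without.

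Within endothelial clusters Pdgfb kept an order in which arterial cells stood highest, at 655 and 614 CPM in the libraries without infarction, and the venous and endocardial cluster 19 at 241 and 171 CPM. The small cluster 31, also venous and endocardial by its markers, had 37.8 CPM in the control library. Capillary cells were at 502 and 533 CPM and Tip-type cells at 548 and 536 CPM, between the arterial and the venous values. With infarction the Tip-type cluster had 313 CPM in the deletion-labelled and 297 CPM in the control library, log2 ratios of -0.81 (-0.96 to -0.66) and -0.86 (-1.03 to -0.68) against the same cluster without infarction. The arterial cluster had 400 CPM in the deletion-labelled infarction library, against 655 CPM without. The difference in the capillary cluster, 363 against 502 CPM, was within 1.5-fold.

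Pdgfb UMIs were also read in macrophages. Resident macrophages (cluster 12, with Lyve1, Cd163, Cbr2 and Folr2 among its leading genes) had 134 CPM (124 to 146; 586 UMIs) in the deletion-labelled and 137 CPM (127 to 148; 655 UMIs) in the control library without infarction. This cluster held 12 and 1 cells in the infarction libraries, where cluster 2, with Gpnmb, Spp1, Ms4a7 and Trem2 among its leading genes, held most mononuclear phagocytes and had 16.5 CPM and 13.7 CPM. Cells and treatment changed together here, so a lower level per cell and a replacement of cells cannot be told apart. Cluster 2 also had Pf4 and Ppbp of the platelet list among its leading genes, so the class as a whole was not compared between groups. After thinning, 23.4% and 22.7% of resident macrophages had a Pdgfb UMI. The class of T and NK cells read 13.5 and 11.7 CPM of Pdgfb with infarction, against 41.8 and 43.0 CPM without. The part of endothelial RNA in the macrophage values was not tested. In fibroblasts Pdgfb stood at 1.05 and 0.316 CPM with infarction against 8.04 and 4.997 CPM without. If endothelial RNA came along in proportion to the endothelial markers read in fibroblasts it would give 1.27 and 2.75 CPM with infarction against 7.97 and 5.44 CPM without. The values read were within 1.5-fold of this in 3 libraries and far below it in the control infarction library. The part of endothelial RNA in them was not tested. The same estimate for mural cells was 29.8 and 44.0 CPM with infarction against 50.7 and 76.3 CPM without, with 11.6 and 1.80 CPM read with infarction against 47.3 and 69.2 CPM without.

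Pdgfc, which encodes a CUB-domain ligand, was the rarest of the 6. Resident macrophages of cluster 12 had 17.4 CPM (13.7 to 21.8; 76 UMIs) in the deletion-labelled and 16.6 CPM (13.1 to 20.6; 79 UMIs) in the control library without infarction. In fibroblasts 132 and 115 UMIs were read with infarction, against 3 and 6 without, or 3.76 and 3.63 CPM against 0.111 and 0.297 CPM. The log2 ratios were 5.09 (3.51 to 7.38) in the deletion-labelled and 3.61 (2.45 to 5.09) in the control libraries. Cluster 5 held 131 of the 132 and all 115 of these UMIs. The gene was sparse in single cells, and 0.417% and 0.418% of fibroblasts had a UMI after thinning with infarction, against 0.0513% and 0.0538% without. B cells held no Pdgfc UMI in any library. In endothelial cells Pdgfc lay in the small cluster 31, which has Npr3, Vwf and Nrg1 among its leading genes. It held 13 of the 13 UMIs of the class in the deletion-labelled infarction library and 8 of 9 in the control library without infarction. That cluster made up 5.31% and 4.68% of endothelial cells with infarction, against 0.274% and 0.536% without. The part of that make-up in endothelial Pdgfc was not tested.

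Pdgfd, the other CUB-domain ligand, followed the arteries. The arterial cluster 4 stood at 147 and 187 CPM without infarction, above the capillary cluster 0 at 74.1 and 117 CPM and the Tip-type cluster 14 at 53.6 and 64.8 CPM. All endothelial cells together had 38.7 CPM (167 UMIs) and 30.1 CPM (79 UMIs) with infarction, against 86.8 CPM (2612 UMIs) and 124 CPM (2178 UMIs) without. The log2 ratios were -1.16 (-1.40 to -0.94) in the deletion-labelled and -2.04 (-2.38 to -1.72) in the control libraries. Within the capillary cluster of the deletion-labelled libraries Pdgfd had 85.9 CPM with infarction against 74.1 CPM without, a log2 ratio of 0.21 (-0.31 to 0.69), so the difference of the class was not present there. Within the arterial and Tip-type clusters it was lower with infarction, at 91.9 against 147 CPM and at 33.4 against 53.6 CPM. Fibroblasts had 1.79 and 1.89 CPM with infarction against 8.11 and 11.7 CPM without, above the 0.198 and 0.325 CPM against 1.31 and 1.30 CPM that endothelial markers would carry.

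Pdgfra, the receptor for the A and C chains and a standard marker of cardiac fibroblasts, was lower in fibroblasts with infarction. Fibroblasts had 219 CPM (214 to 224; 7681 UMIs) in the deletion-labelled and 154 CPM (150 to 158; 4872 UMIs) in the control infarction library, against 557 CPM (548 to 566; 15099 UMIs) in the deletion-labelled and 721 CPM (709 to 733; 14570 UMIs) in the control library without infarction. The log2 ratios were -1.35 (-1.39 to -1.31) and -2.23 (-2.28 to -2.18). Both infarction libraries lay below both others, with intervals that cover counting error only. Of all genes in fibroblasts 32.5% and 39.7% were at least 1.5-fold lower. After thinning, 37.2% and 24.8% of fibroblasts had a Pdgfra UMI with infarction, against 65.7% and 72.1% without. The shares in B cells were 0.462% and 0.231% with infarction and 1.33% and 2.997% without, and 6 to 29 shallow fibroblasts per library were left out. Without thinning the fibroblast shares were 86.8% and 81.9% against 97.7% and 98.1%. The median fibroblast held 19725 and 31435 UMIs with infarction and 13477 and 10552.5 without. In UMIs per cell with no scaling the difference was smaller but of the same sign, with 5.24 and 5.02 Pdgfra UMIs per fibroblast against 7.72 and 7.82.

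In the deletion-labelled libraries this difference was larger between fibroblast clusters than within them. The Activated cluster 5 had 172 CPM in the deletion-labelled and 151 CPM in the control infarction library. In the deletion-labelled infarction library the Smoc2-type cluster 3 had 498 CPM, against 583 CPM without infarction, a log2 ratio of -0.23 (-0.34 to -0.12). The Pi16-type cluster 6 had 412 CPM, against 516 CPM without infarction, a log2 ratio of -0.32 (-0.40 to -0.25). Both are within 1.5-fold, while the class as a whole was 2.55-fold lower with infarction. The control library without infarction stood at 773 CPM in cluster 3 and 669 CPM in cluster 6. Epicardial cells, the outer layer of the heart, numbered 19 cells with 120 Pdgfra UMIs in the deletion-labelled infarction library, under the 20 cells set for a level, and 29 cells with 300 UMIs, or 285 CPM (253 to 319), in the control infarction library. The libraries without infarction held none. Endothelial cells had 3.24 and 3.05 CPM with infarction and 18.9 and 21.9 CPM without, beside 1.87 and 1.21 against 2.85 and 14.6 CPM in B cells. Arterial cells stood highest among them, at 32.3 and 32.7 CPM without infarction.

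**Figure D4:**
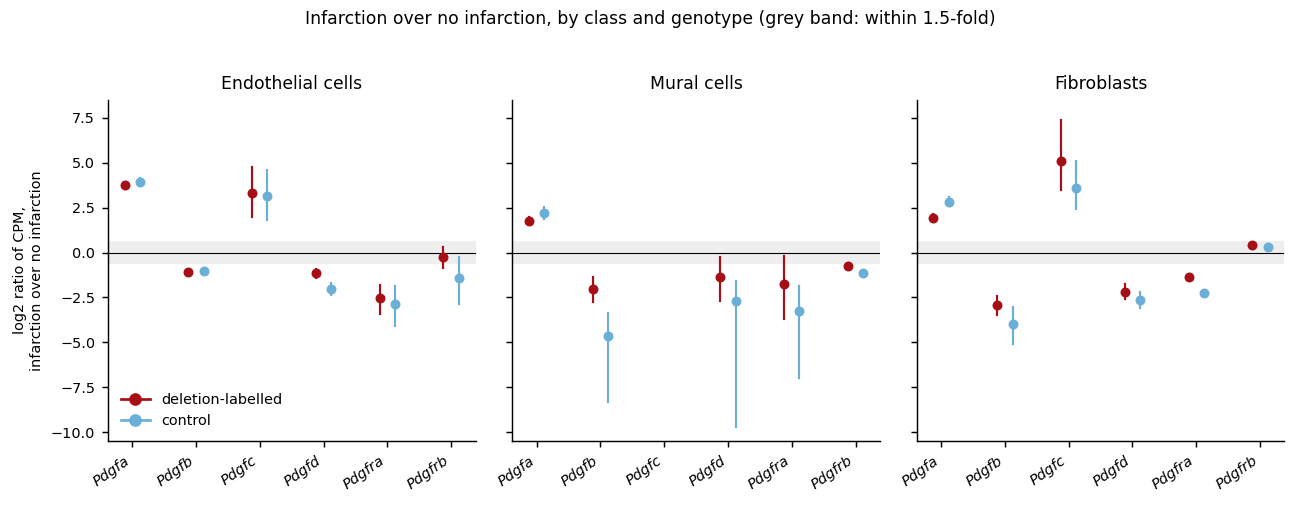
Log2 ratio of CPM, infarction over no infarction (vertical axis), of the 6 genes in endothelial cells, mural cells and fibroblasts, deletion-labelled and control, with exact 95% intervals as bars and the range within 1.5-fold in grey; genes with fewer than 10 UMIs in both sums have no point. Pdgfa lies above the band in all 3 classes, with ratios from 1.78 to 3.94, and Pdgfrb in fibroblasts lies inside it at 0.42 and 0.30.

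Pdgfrb, the receptor for the B and D chains, was highest in mural cells and stood lower there with infarction. Mural cells of the deletion-labelled infarction library had 907 CPM (864 to 952; 1642 UMIs), those of the control infarction library 793 CPM (742 to 847; 879 UMIs), against 1539 CPM (5005 UMIs) in the deletion-labelled and 1737 CPM (1456 UMIs) in the control library without infarction. The log2 ratios were -0.76 (-0.84 to -0.68) and -1.13 (-1.25 to -1.01). Pericytes of cluster 16 had 1667 CPM with infarction against 2015 CPM without in the deletion-labelled libraries, a log2 ratio of -0.27 (-0.41 to -0.14) and within 1.5-fold. Smooth muscle cells of cluster 26 had 344 against 701 CPM, a log2 ratio of -1.03 (-1.37 to -0.70). Cluster 25, which held most mural cells of the control infarction library, had 834 and 775 CPM. Per mural cell with no scaling, Pdgfrb turned round, with 9.55 and 11.4 UMIs with infarction against 8.95 and 7.39 without. The median mural cell held 7693 and 11417 UMIs against 5390 and 3899.

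In fibroblasts Pdgfrb was within 1.5-fold in both genotypes. It stood at 163 and 177 CPM with infarction, against 121 and 143 CPM without, with log2 ratios of 0.42 (0.36 to 0.49) and 0.30 (0.24 to 0.37). Scaled by the median of ratios over genes, these became 0.66 and 0.63, just past the rule. Mural markers in fibroblasts would carry 62.2 and 93.7 CPM of Pdgfrb with infarction and 8.497 and 7.901 CPM without, all below the values read. That estimate uses the whole list, Acta2 and Tagln included, while Rgs5, Kcnj8, Abcc9 and Vtn were lower in fibroblasts with infarction, as given above. The part of mural RNA in the Pdgfrb of fibroblasts was not tested. The Activated cluster 5 had 169 and 177 CPM and clusters 3 and 6 of the deletion-labelled infarction library 141 and 134 CPM. Clustered at resolution 2, fibroblast clusters of the deletion-labelled infarction library ran from 63.9 to 187 CPM of Pdgfrb and from 165 to 535 CPM of Pdgfra.

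Both receptors were also followed within single cells. After thinning, a UMI of Pdgfra alone was found in 28.4% and 17.1% of fibroblasts with infarction, against 51.4% and 53.2% without. Pdgfrb alone was found in 15.5% and 22.1% with infarction, against 7.34% and 6.89% without, and both in 8.83% and 7.74% against 14.4% and 18.8%. Neither was found in 47.3% and 53.1% with infarction, against 26.9% and 21.0% without. A receptor not read at this depth may still be expressed, so these shares of fibroblasts hold for this depth only. Mural cells carried Pdgfrb alone in 79.1% and 73.7% of cells with infarction and 90.4% and 91.9% without, and both receptors in 0% and 0% with infarction and 0.982% and 3.11% without. The counts of 0 allow up to 2.24% and 4.74% of cells with a UMI of both at this depth and set no limit on cells that express both. B cells had a Pdgfrb UMI in 0.693% and 0.463% of cells with infarction and 0.667% and 0.272% without.

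**Figure D5:**
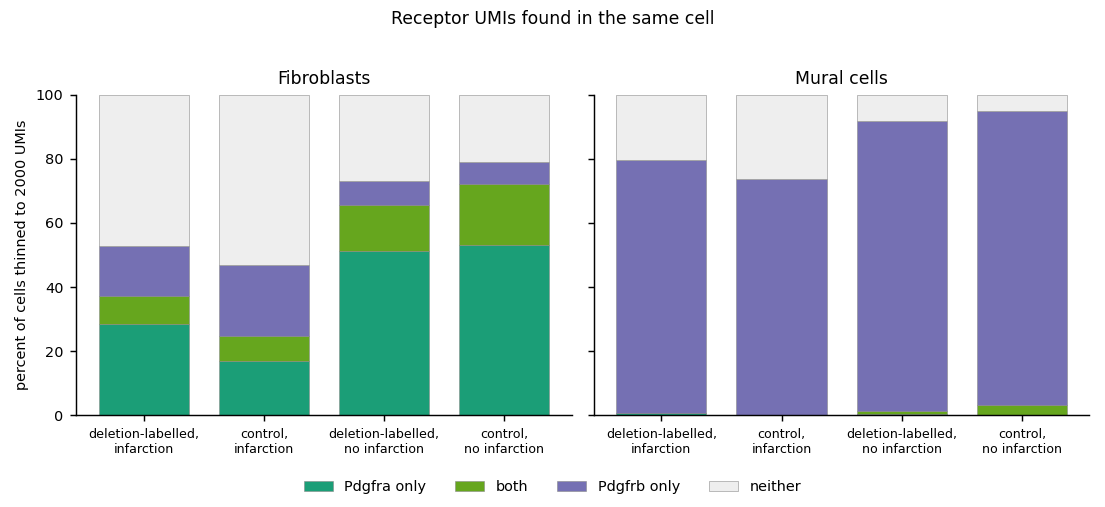
Percent of fibroblasts (left) and mural cells (right), each thinned to 2000 UMIs, with a UMI of Pdgfra only, of both receptors, of Pdgfrb only or of neither, in the 4 libraries (bars). Fibroblasts with Pdgfra only made up 28.4% and 17.1% with infarction and 51.4% and 53.2% without, while Pdgfrb only was the main state of mural cells in every library.

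The deletion-labelled and control libraries were then compared under the same treatment. With infarction 1 of 6 members passed 1.5-fold in fibroblasts (18.9% of all genes), 3 of 6 in endothelial cells (19.1%) and 1 of 3 in mural cells (24.1%). Without infarction 1 of 5 passed in fibroblasts (16.5%), 0 of 5 in endothelial cells (18.7%) and 2 of 5 in mural cells (28.2%). The member that passed in fibroblasts was Pdgfb both times, at the low levels given above, and in mural cells it was Pdgfb at 11.6 against 1.80 CPM with infarction and Pdgfd and Pdgfra on 37 or fewer UMIs a library without. The endothelial members were Pdgfa at 126 against 191 CPM, Pdgfc on 13 against 12 UMIs and Pdgfrb on 30 against 6 UMIs. The Tip-type cluster 14 made up 32.8% of these endothelial cells in the deletion-labelled and 64.3% in the control library. Its Pdgfa levels with infarction, given above, lay within 1.5-fold of each other. The part of that make-up in endothelial Pdgfa was not tested. That endothelial Pdgfrb stood at 6.95 against 2.29 CPM, beside the 5.53 and 4.04 CPM that mural markers would carry. Pdgfra in fibroblasts stood at 219 CPM in the deletion-labelled against 154 CPM in the control infarction library, a log2 ratio of 0.51 (0.46 to 0.56). Within the Activated cluster 5 this log2 ratio was 0.19 (0.13 to 0.24). Without infarction Pdgfra was at 557 CPM in the deletion-labelled against 721 CPM in the control library, a log2 ratio of -0.37 (-0.41 to -0.34), and the same sign and size were read in clusters 3 and 6, at -0.41 and -0.37. The infarction log2 ratio of Pdgfra was thus 0.88 (0.82 to 0.94) higher in the deletion-labelled than in the control pair. In UMIs per cell with no scaling this gap nearly closed, with infarction log2 ratios of -0.56 in the deletion-labelled and -0.64 in the control pair and genotype log2 ratios of 0.061 with infarction and -0.017 without. The share of fibroblasts in cluster 5 differed alongside, at 66.2% in the deletion-labelled and 97.8% in the control infarction library. The part of that make-up in the difference was not tested beyond the values within cluster 5. With 1 library a group, differences of these sizes cannot be set against the spread between animals.

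Macrophage clusters were compared between genotypes in the same way. In cluster 2 with infarction 2 of 5 members passed, where 13.7% of all genes did. Pdgfc had 109 UMIs in the deletion-labelled library, or 3.97 CPM (3.26 to 4.79), against 60 UMIs in the control library, or 1.84 CPM (1.41 to 2.37), a log2 ratio of 1.11 (0.64 to 1.59), and Pdgfrb at 1.17 against 1.84 CPM, below the 3.75 and 6.66 CPM read in B cells of the same libraries. In the resident cluster 12 without infarction 1 of 6 members passed, where 18.1% of all genes did, namely Pdgfrb on 50 against 17 UMIs. B cells of the same deletion-labelled and control libraries read 9.98 CPM (4.01 to 20.6) and 3.85 CPM (1.25 to 8.99) of Pdgfrb. All mononuclear phagocytes there had 11.4 and 3.78 CPM. The part of RNA from other cells in the Pdgfrb difference was not tested.

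Genes that act with PDGF were followed in 7 lists, and their counts are to be read against the shares of all genes that passed, given above for each comparison. In fibroblasts 21.4% of all genes were higher and 32.5% lower in the deletion-labelled comparison and 26.1% higher and 39.7% lower in the control one. The median log2 ratio over all genes in the deletion-labelled and control comparisons was -0.20 and -0.27 in fibroblasts, -0.20 and -0.29 in mural cells and -0.0039 and -0.025 in endothelial cells. Of 22 receptor-proximal signalling genes, the adaptors and kinases that bind the activated receptor, 0 were higher and 9 lower with infarction in deletion-labelled fibroblasts, and 0 higher and 12 lower in control fibroblasts. Their median log2 ratios were -0.53 and -0.80. Fyn, a Src family kinase, had 36.6 against 123 CPM in control fibroblasts and the PI3-kinase subunit gene Pik3r2 had 19.9 against 48.0 CPM in deletion-labelled ones. In mural cells 1 and 0 of the 22 were higher and 7 and 14 lower, and in endothelial cells 1 and 2 were higher and 10 and 12 lower, with medians of -0.29 and -0.75 in mural and -0.43 and -0.62 in endothelial cells. Stat3, a transcription factor that receptor kinases activate, was the mural exception, at 150 against 81.2 CPM in the deletion-labelled libraries.

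Immediate-early genes, which growth factors switch on within minutes to hours, were split in fibroblasts, with 10 higher and 7 lower of 18 in the deletion-labelled and 9 higher and 6 lower in the control libraries and medians of 0.73 and 0.58. Fosl1, a subunit of AP-1, had 13.5 against 0.443 CPM and 20.9 against 1.19 CPM, and Plaur, the urokinase receptor, 39.8 against 4.65 CPM and 54.7 against 7.67 CPM, while Klf4 had 148 against 453 CPM and 80.4 against 485 CPM. In mural cells 10 of 17 were higher and 0 lower in the deletion-labelled, and 11 higher and 1 lower in the control libraries, with medians of 1.53 and 1.40. The chemokine gene Ccl2 had 420 against 9.53 CPM and 239 against 11.9 CPM there, and is one of the leading genes of cluster 25. In endothelial cells 8 and 9 of 18 were higher and 5 and 6 lower, with medians of 0.10 and 0.48. Egr1, whose product binds GC-rich promoters, was lower there, at 183 against 521 CPM and 85.4 against 243 CPM. Myc was higher there, at 27.1 against 1.06 CPM and 34.7 against 1.59 CPM. Whether PDGF acted on any of these genes was not tested.

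Among the 10 genes of ligand processing and matrix retention 5 were higher and 4 lower in deletion-labelled fibroblasts and 4 higher and 5 lower in control fibroblasts, with medians of 0.29 and -0.27. Pcsk6, a proprotein convertase, had 107 against 909 CPM and 24.1 against 912 CPM, the lowest ratios of the list at -3.09 and -5.24. Plau, the urokinase gene, had 7.55 against 36.0 CPM in deletion-labelled and Pcsk5 2.97 against 42.0 CPM in control fibroblasts. In mural cells 5 of 9 were higher and 2 lower in each genotype (medians 0.84 and 0.71), with Thbs1, the matrix protein thrombospondin, at 234 against 32.6 CPM and 670 against 47.7 CPM. In endothelial cells 3 and 6 of 9 were higher and 2 and 2 lower (medians 0.47 and 0.79).

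Of 8 co-receptors and receptor partners 1 was higher and 4 lower in deletion-labelled fibroblasts and 2 higher and 3 lower in control fibroblasts, with medians of -0.23 and -0.33. Lrp1, an endocytic receptor that binds PDGF receptor beta, had 483 against 1207 CPM and 283 against 1419 CPM, and Nrp1, a co-receptor of several growth factors, 118 against 204 CPM and 101 against 282 CPM. In mural cells 2 and 1 were higher and 2 and 6 lower (medians -0.20 and -0.98), and in endothelial cells 2 and 2 higher and 3 and 4 lower (medians -0.55 and -0.74), with the integrin gene Itgb3 at 31.3 against 1.79 CPM and 54.9 against 2.56 CPM. Of 16 receptor phosphatases, ubiquitin ligases and feedback inhibitors 2 were higher and 5 lower in deletion-labelled and 3 higher and 7 lower in control fibroblasts, with medians of -0.27 and -0.47. Spry1, a feedback inhibitor of receptor tyrosine kinases, had 106 against 363 CPM and 57.4 against 289 CPM, and Ptpn1, a phosphatase of these receptors, 92.4 against 48.1 CPM and 105 against 58.6 CPM. In mural cells 3 and 4 of the 16 were higher and 5 and 9 lower (medians -0.27 and -0.67), and in endothelial cells 4 and 2 were higher and 5 and 7 lower (medians -0.29 and -0.41).

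The last 2 lists are relatives of the family. Of the VEGF branch 1 and 1 of 5 genes were higher and 0 and 1 lower in fibroblasts, 2 of 4 and 2 of 3 higher and 2 and 0 lower in mural cells, and 3 and 1 of 5 higher and 1 and 1 lower in endothelial cells. The medians were -0.45 and 0.06 in fibroblasts, 0.01 and 1.45 in mural cells and 0.90 and 0.16 in endothelial cells. Pgf, placental growth factor and itself a marker of the Tip-type cluster, had 240 against 6.41 CPM and 448 against 8.93 CPM in endothelial cells. The class III receptor kinases Csf1r, Kit and Flt3 had at most 2 genes with enough UMIs in a class, with Kit at 95.7 against 40.2 CPM and 148 against 47.9 CPM in endothelial cells, where it too leads the Tip-type cluster. Between genotypes in fibroblasts, 0 of 22 receptor-proximal genes passed with infarction, where 18.9% of all genes did, and 1 was lower without infarction, where 16.5% of all genes passed.

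The genes most like each member were found by Pearson correlation of log2(CPM + 1) over 30 class sums of at least 50 cells, from 9 classes, which share the libraries and so are no independent points. Pdgfb was most like Lpar6 (0.92), followed by Kank3, Rasgrf2, Adgrl4 and Ccdc85a. Pdgfd was most like Sncaip (0.95), followed by Akr1c14, Clec14a, Ptprm and Tspan7, and Pdgfa like Procr (0.92), with Gipc1, Dbndd2 and Ube2e3 also among the 5 most alike. For Pdgfc the highest value was 0.82 with Cltc, followed by Gatm, Ap2a2, Dab2 and Serpinb8. Pdgfra was most like Mfap4 (0.94), followed by Pcolce2, Sox9, Cilp and Ogn, and Pdgfrb like Dzip1l (0.96), followed by Aspn, Pakap, Arhgap42 and Pacsin3.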

How the data were processed

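Live nucleated cells from mouse hearts were measured by droplet single-cell RNA sequencing of transcript 3′ ends. The deposited files hold UMI counts per gene and cell, made by the authors with Cell Ranger 5.0.1 on mm10, per the submitters' processing notes. The counts were used as deposited.

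From them, cells with at least 500 UMIs, 200 genes and at most 20% mitochondrial UMIs were kept. Doublets were called by simulated neighbours in each library at 0.8% per 1000 cells (898, 812, 1032 and 655 cells left out). Cells were clustered with scanpy 1.11.5 and leidenalg 0.10.2 on 2000 variable genes, 30 components and 20 neighbours at resolution 1, without the 6 members, eGFP and MerCreMer. Of 38 clusters 32 were named from marker lists, and 6 (8.66% of cells) stayed unnamed. The limits of that naming were adjusted after the data were seen, so shares of classes may come from rebuilt names. UMIs were summed per class and library and scaled to CPM. Intervals are exact at 95%, Poisson for levels and Clopper-Pearson for ratios and shares (scipy 1.17.1), and cover counting error only. In ratios, sums under 3 UMIs were raised to 3. Classes needed 20 cells. With 1 library per group no test was run. List genes were named from the 2 highest and 2 lowest ratios of each list among genes with at least 30 UMIs in a sum, and 2 genes that this rule or the likeness rule picked are not reported here. "Carried" levels scale the source class's ratio of the gene to its marker list by the marker level read in the receiving class. The members and lists were chosen with earlier results of these data known. The scripts were tested on simulated data. Alternatives tried were other cell limits, no doublet removal, other resolutions, clustering with the members or each library alone, other scalings and depths of thinning, and the same ratio within clusters.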

Additional observations from a re-analysis of the deposited data

Results flagged for a closer look

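For 4 pairs of values the deletion-labelled over control ratio had a sign with infarction opposite to that without. In fibroblasts the log2 ratio of Pdgfa was -0.51 with infarction and 0.38 without, and that of Pdgfra was 0.51 with infarction and -0.37 without. In mural cells the log2 ratio of Pdgfrb was 0.19 with infarction and -0.18 without, and that of Pdgfb was 2.10 with infarction, on 21 against 2 UMIs, and -0.55 without. These differences were not tested, because each group has 1 library. The mural Pdgfb values lie at or below those that endothelial markers would carry, as given above.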

How the results depend on the processing

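Clustering at resolution 0.5 or 2.0, or with the members kept in, left 64 of 64 main ratios within their main intervals in each case. Over all settings 568 log2 ratios stayed there, 140 moved and 9 turned round. Of the shares of cells with a UMI, 39 moved and 1 stayed when the depth of thinning was changed or thinning was left out. Of the list counts, 42 moved and 350 stayed under other UMI limits. Scaled as UMIs per cell, an alternative chosen after seeing the data, infarction over no infarction in deletion-labelled and control libraries gave 4.31 and 5.44 for endothelial Pdgfa, -0.52 and 0.48 for Pdgfb (control turned round) and -0.59 and -0.53 for Pdgfd, with control Pdgfrb at 0.11 against -1.40 in CPM. It gave 2.73 and 4.42 for fibroblast Pdgfa, -0.56 and -0.64 for Pdgfra and 1.21 and 1.89 for Pdgfrb, and 2.64 and 3.96 for mural Pdgfa and 0.093 and 0.63 for Pdgfrb (both turned round). Deletion-labelled over control per fibroblast it gave -0.96, 0.061 and -0.56 with infarction and 0.73, -0.017 and 0.11 without, for Pdgfa, Pdgfra and Pdgfrb. By the mean over cells of each cell's CPM, infarction over no infarction gave 3.34 for endothelial Pdgfa in deletion-labelled libraries, -0.82 and -0.82 for Pdgfb, -0.65 and -1.59 for Pdgfd, 0.28 and 0.22 for fibroblast Pdgfrb, -1.10 for fibroblast Pdgfra in deletion-labelled libraries, and -0.47 and -0.84 for mural Pdgfrb. Between genotypes with infarction it gave -0.82, 0.73 and -0.21 for fibroblast Pdgfa, Pdgfra and Pdgfrb. Scaled by the median of ratios, fibroblasts gave 2.18 and 3.16 for Pdgfa, -1.11 and -1.90 for Pdgfra and 0.66 and 0.63 for Pdgfrb, mural Pdgfrb -0.65 and -0.87, and fibroblast Pdgfra -0.34 between genotypes without infarction. With each library clustered alone, control fibroblasts gave -2.07 for Pdgfra and 0.39 for Pdgfrb. Between genotypes that gave -0.71, -0.63 (turned round from 1.74), 0.36 and -0.19 with infarction for Pdgfa, Pdgfb, Pdgfra and Pdgfrb, and 0.016 for Pdgfa without. With no doublet removal mural Pdgfrb gave -0.55 and -1.34, and with at least 1000 UMIs per cell mural Pdgfd between genotypes without infarction gave 0.25 (turned round from -0.65). Within clusters of the deletion-labelled libraries, infarction over no infarction gave 1.21, 1.99, 3.47, 1.40 and 1.74 for Pdgfa and -0.47, -0.71, -0.81, -1.36 and -1.33 for Pdgfb in endothelial clusters 0, 4, 14, 19 and 27. It gave -0.49 (turned round) and 0.017 for Pdgfa, -0.23 and -0.32 for Pdgfra and 0.0065 and 0.56 for Pdgfrb in fibroblast clusters 3 and 6, and 1.27 and 0.96 for Pdgfa and -0.27 and -1.03 for Pdgfrb in mural clusters 16 and 26. In control cluster 14 it gave 2.51 for Pdgfa and -0.86 for Pdgfb. Between genotypes, cluster 5 with infarction gave -0.33 for Pdgfa and 0.19 for Pdgfra, cluster 3 without infarction -0.41 for Pdgfra and -0.35 for Pdgfrb, and endothelial clusters 14 and 27 with infarction -0.48 and -0.0055 for Pdgfrb (turned round from 1.60). The cause of these moves was not tested. No paired analysis was possible because only 1 library was made per group, and for that reason no replicate could be left out. Depth limits Pdgfc most, with 731 UMIs in all.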

Other observations

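Cells outside the compared classes also held members of the family. Glial cells of the deletion-labelled library without infarction had the highest Pdgfa level of any class, 806 CPM (697 to 926; 197 UMIs from 31 cells), and 155 CPM of Pdgfb (38 UMIs) and 53.2 CPM of Pdgfrb (13 UMIs). The other libraries held 2 to 8 glial cells, under the minimum for a level. The part of RNA from other cells in these glial values was not tested. Lymphatic endothelial cells of the control library without infarction had 73.0 CPM of Pdgfa on 14 UMIs.

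Cluster 9, left unnamed because cardiomyocyte genes such as Myl2 and Tnnt2 led cells that also carried endothelial markers, had 475 CPM of Pdgfb in the deletion-labelled (1926 UMIs) and 508 CPM in the control library (902 UMIs) without infarction, and 138 CPM in the deletion-labelled library with infarction. The unnamed cluster 15, whose median cell held 844 UMIs, had 145 and 200 CPM of Pdgfra without infarction. The unnamed cluster 13, led by antigen-presentation genes such as H2-Eb1 and Cd209a, had 38.3 and 38.2 CPM of Pdgfb with infarction. Erythroid cells of the deletion-labelled library without infarction had 256 CPM of Pdgfb (234 UMIs), and the summed endothelial marker list stood at 17793 CPM in them, with 10 of 10 markers above 0. The part of endothelial RNA in that value was not tested.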
